A study of Mus musculus with 4 samples.

Results

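K20R-restricted promoter and exon regions are stretches of open chromatin that were listed in both CTCF-K20R libraries and in neither wild-type (WT) library, and that lay at a gene start or in an exon. Peaks of all 4 ATAC-seq peak lists were merged where they shared at least 1 bp. A region was kept when its strongest summit, the position of highest signal in a peak, lay in an exon of a protein-coding gene or no more than 1000 bp from where its transcripts begin (the transcription start site, TSS). This left 325 of 80380 regions, of which 147 were promoter regions and 178 were exon regions, at 320 genes. The presence of a peak in K20R and its absence in WT chose the regions, and because they were selected on these listed peaks this contrast is described below and was not tested.

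The ATAC-seq assay, in which a transposase cuts accessible DNA and tags it for sequencing, was run on embryoid bodies on day 4 of differentiation. Both groups came from E14Tg2A mouse embryonic stem cells, kept on mitomycin C-treated feeder fibroblasts with serum, LIF and 2i and then aggregated in hanging drops with serum and without LIF. The WT group carried unedited CTCF, and in the K20R group lysine 20 of CTCF was changed to arginine by CRISPR/Cas9 with a donor and drug selection. There were 2 libraries of each genotype, described in the methods as biological replicates, and how many edited clones stand behind the K20R libraries was not given in the sources used here.

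CTCF is a zinc finger protein that binds a long DNA motif, stops the loop extrusion by cohesin and so marks the borders of chromatin loops and domains. Open chromatin at a TSS reflects a promoter that is free of nucleosomes, and most promoters used by every cell are rich in CpG dinucleotides and open in nearly all cell types. Many germline genes, which act in meiosis, in the piRNA pathway or in gametes, have promoters of intermediate CpG content that are methylated and silent in somatic tissues.

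The strongest regions included promoters of genes known from the testis and from meiosis. Of the 4 strongest promoter regions for which 150 bases upstream of the TSS hold no annotated exon, 3 belong to such genes and the fourth is a defensin gene. They are shown to let the CpG content be seen, with each CpG in capitals, 5′ to 3′ on the strand of the gene, from GRCm38.p6 (mm10). The Gpat2 sequence is chr2:127425049-127425198 on the plus strand, Pxt1 is chr17:28942265-28942414 on the minus strand, Ankrd31 is chr13:96748122-96748271 on the plus strand and Defb1 is chr8:21776449-21776598 on the plus strand.
Gpat2: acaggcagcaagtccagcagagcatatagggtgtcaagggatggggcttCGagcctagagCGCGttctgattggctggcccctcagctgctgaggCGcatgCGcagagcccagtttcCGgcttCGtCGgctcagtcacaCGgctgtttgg
Pxt1: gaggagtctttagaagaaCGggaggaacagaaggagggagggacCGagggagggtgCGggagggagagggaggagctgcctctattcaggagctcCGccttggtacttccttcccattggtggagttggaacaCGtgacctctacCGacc
Ankrd31: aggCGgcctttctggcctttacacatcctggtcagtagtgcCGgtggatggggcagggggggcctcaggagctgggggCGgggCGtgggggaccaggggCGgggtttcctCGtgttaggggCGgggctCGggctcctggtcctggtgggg
Defb1: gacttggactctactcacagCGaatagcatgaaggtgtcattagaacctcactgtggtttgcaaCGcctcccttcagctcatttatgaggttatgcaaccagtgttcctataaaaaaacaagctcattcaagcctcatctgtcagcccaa
The first 3 of these hold 9, 6 and 8 CpG, and the Defb1 sequence holds 2. Among the exon regions, the strongest on the chromosomes searched whose sequence around the summit was coding in every transcript was that of Wnt5a, and 101 bases around its summit at chr14:28522717-28522817 on the plus strand hold 7 CpG.
Wnt5a: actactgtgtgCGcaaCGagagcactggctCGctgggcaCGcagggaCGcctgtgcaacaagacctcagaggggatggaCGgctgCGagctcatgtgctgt
The CTCF consensus occurred in few of the regions. The strongest of those is a coding exon of Mpp4, shown at chr1:59144702-59144753 on the plus strand with the consensus in capitals.
Mpp4: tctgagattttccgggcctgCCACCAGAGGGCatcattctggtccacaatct

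The WT lists held 59783 and 66703 peaks, fewer being listed for K20R (51823 and 55832), and no read totals were used. Relative depth, read from the background level that each list implies, was between 0.976 and 1.15 of that of WT replicate 1. Of the 4 mesoderm markers, 4 had a promoter peak in all 4 lists, as had 3 of 4 pluripotency markers, 2 of 2 endoderm, 2 of 2 neuroectoderm and 4 of 4 fibroblast markers. The exception was Pou5f1, a core pluripotency factor, whose promoter peak stood at the 77.9th and 79.3rd percentile of the WT lists and the 87.7th of K20R replicate 2 and was not listed in K20R replicate 1. Peaks are numbered within each list with gaps, so that called peaks had been taken out by a rule not stated, and a missing peak is therefore not a measurement of closed chromatin. Of the 325 regions, 104 (32.0%) lay between WT peaks with consecutive numbers in both WT lists, where no called WT peak can have been taken out.

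K20R-restricted regions made up 3.1% of all regions and 1.73% of all promoter and exon regions, against 10.4% of all regions for the mirror class, listed in both WT libraries and neither K20R library. At promoters and exons there were 478 WT-restricted against 325 K20R-restricted regions, a log2 ratio of 0.56, and the ratio was 1.86 in introns and intergenic sequence. It was 0.91 for promoters (277 against 147) and 0.18 for exons (201 against 178). The WT lists were also the longer ones, and when every list was shortened to its strongest peaks, as many as in the shortest list, the promoter and exon ratio turned to -0.96 (281 against 547). Of all peaks, 4.10% and 3.95% lay in exons in the WT libraries and 4.68% and 4.69% in the K20R libraries, while 25.0% and 22.6% lay at promoters in WT and 28.6% and 26.4% in K20R. Both shares were higher in each K20R library than in each WT library, and the two-sided exact permutation test gave p = 0.33 for each, which is the smallest p that 2 against 2 libraries allow. With equal numbers of strongest peaks the promoter difference fell from 3.71 to 0.453 percentage points (exact permutation p = 0.67). Promoter peaks themselves were fewer in both K20R libraries, 14814 and 14745 against 14937 and 15073. Exon peaks numbered 2454 and 2636 in the WT libraries against 2427 and 2620 in the K20R libraries, and these counts overlapped.

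Most of the regions were weak. The strength of a peak is given as its percentile by −log10 p in its own list and as the number of fragments piled up at its summit, recovered from the deposited fold and p. The median region stood at the 21.7th percentile in K20R replicate 1 and the 22.7th in K20R replicate 2, with 18 and 23 fragments at the summit and a fold over local background of 2.98 and 3.71. In 83 of the 325 regions −log10 q was at least 5 in both K20R libraries, in 19 it was at least 10 in both, and in 44 q was above 0.05 in at least 1 of them. A mean percentile above 50 was reached by 12 promoter regions and 8 exon regions. In 244 regions the fold was higher in K20R replicate 2.

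**Figure D1:**
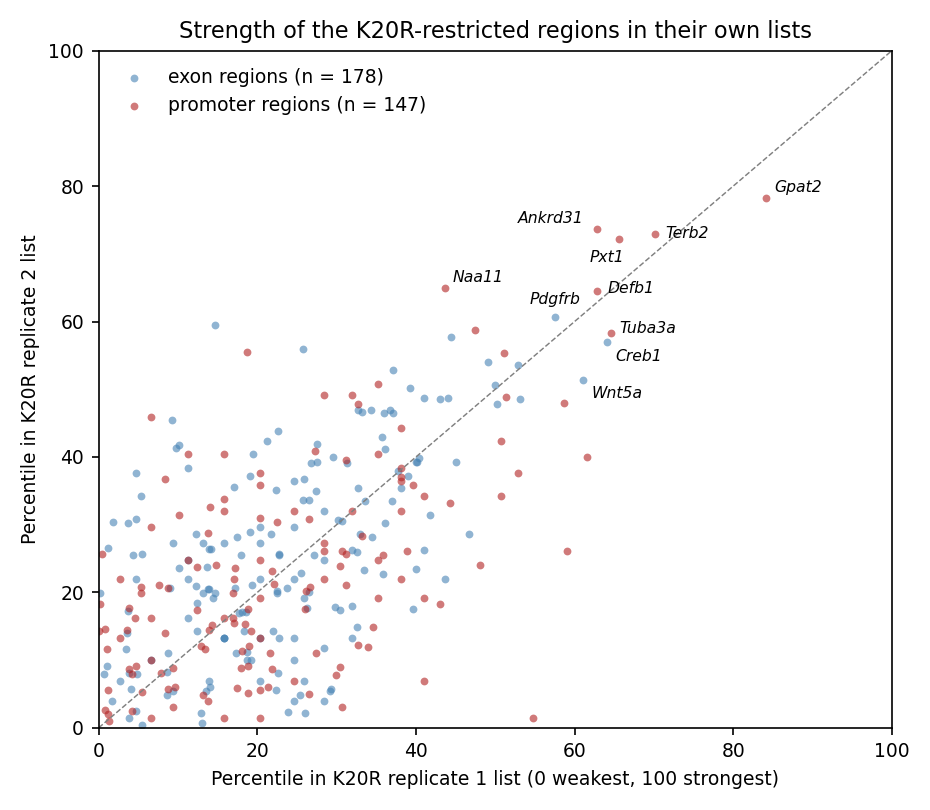
Each point is a K20R-restricted region, placed by its percentile in the list of K20R replicate 1 (x axis) and K20R replicate 2 (y axis), with promoter regions in red and exon regions in blue and the dashed line marking equal percentiles. The 325 points crowd below the middle of both lists, and a small group of promoter regions led by Gpat2 reaches the upper right.

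The edges of the selection were soft. The promoter region nearest to the TSS limit from inside was that of Asb4, at 1000 bp, and the nearest from outside were at Tex50 (1007 bp) and Wipf1 (1049 bp), in neither promoter nor exon. The smallest gaps to a WT peak were 7 bp at Wnt1 and 10 bp at Gsc. A further 404 promoter and exon regions had a peak in both K20R lists and exactly 1 WT list, 129 of them in WT replicate 1 and 275 in WT replicate 2, and the median percentile of that single WT peak was 18.3. Edn1, Kcnv2 and Slc9a4 were each left out by a single WT peak at the 0.344th percentile.

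Gpat2, which encodes a mitochondrial glycerol-3-phosphate acyltransferase found mostly in testis, had the strongest promoter region (chr2:127424773-127425718). Its summit, 20 bp downstream of the TSS, carried 74 fragments in K20R replicate 1 and 83 in K20R replicate 2, at the 84.2nd and 78.3rd percentile, with a fold of 8.51 and 10.1. Terb2, part of the complex that ties meiotic telomeres to the nuclear envelope, had 37 and 59 fragments at the 70.2nd and 72.9th percentile. Pxt1, a testis-specific peroxisomal protein, had 34 and 56 fragments. Ankrd31, which is needed for meiotic DNA breaks on the pseudoautosomal region, had 31 and 57. All 4 stood above the 60th percentile in both libraries, and the nearest WT peak was at least 4513 bp away.

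Next in strength was Defb1, a beta-defensin with antimicrobial activity, with 31 and 45 fragments at a summit 397 bp upstream of its TSS. Tuba3a, an alpha-tubulin of the testis, had 34 and 37 fragments, and since a near-identical paralog (Tuba3b) exists, the assignment of its reads is uncertain. Naa11, the testis paralog of an N-terminal acetyltransferase subunit, differed more between the libraries, with 20 and 42 fragments at the 43.6th and 65.0th percentile. Cmtm1, a chemokine-like gene of the testis, had 29 and 30 fragments. Dmrtb1, a transcription factor of the step from mitosis to meiosis in spermatogonia, had 35 and 53.

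The 12 strongest promoter regions were completed by Cds2, an enzyme of phospholipid synthesis (29 and 52 fragments), 8030474K03Rik (29 and 24) and Slc5a1, the intestinal sodium-glucose cotransporter (30 and 40). For 11 of these 12 genes no other peak lay within 1000 bp of any TSS in any list, Cds2 being the exception. The same held for 83 of all 147 promoter regions. The summit lay within 100 bp of the TSS in 8 of the 12 and in 57 of the 147.

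Genes known from general knowledge for expression in germ cells were then marked by hand among the promoter regions, after the regions had been seen, so the counts are a description, and no such share was taken over other promoters. They numbered 21 of 147, of which 8 were among the 12 strongest and 15 among the 30 strongest, and they lay on 13 chromosomes. The median of their mean percentile was 41.2, against 18.3 for the other promoter regions. The summit lay within 100 bp of the TSS in 17 of 21, against 40 of 126 of the others, and none of the 21 genes had another promoter peak in any list. The marked genes beyond those named so far were Adam32, Rpl39l, Pdcl2, Rbm44, Rpl10l, Hormad1, Figla, Asz1, Tex11, Sohlh2, Aurkc, Morc2b and Piwil1.

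A list of 28 germline genes was taken from general knowledge, but with earlier results of these data known, so its counts are a description. It held 7 genes with a K20R-restricted promoter region (25.0%), against 0.686% of 21862 protein-coding genes. None of the 28 had a WT-restricted promoter region, which 1.26% of all protein-coding genes had. No gene of the other lists below had one either, except in the cardiac and endoderm lists. Rpl10l, a testis copy of a ribosomal protein gene, had 17 and 24 fragments in the K20R libraries. Hormad1, a protein of the meiotic chromosome axis, had 19 and 21. Asz1, of the piRNA pathway, had 17 in both. The nearest WT peak of these 3 was at least 21165 bp away.

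Figla, an oocyte transcription factor, was uneven, with 13 and 36 fragments at the 18.8th and 55.5th percentile. Tex11, an X-linked meiotic crossover factor, had 14 and 20 fragments. Piwil1, which encodes the piRNA-binding protein MIWI, was the weakest of the 7, with 15 and 18 fragments at the 17.0th and 15.4th percentile. The seventh was Tuba3a, above. The count of list genes stayed between 5 and 8 under every alternative setting tried for the regions, and no setting gave a WT-restricted one. Leaving out a WT library could not lower the count, and leaving out a K20R library loosened the rule. A similar count did not mean the same genes. With peaks of −log10 q of at least 5 only, 8 list genes were restricted to K20R and 4 of them were among the 7. At 10 they were 5, and 1 of them was among the 7.

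Of the other lists, the pluripotency list held 2 of 24 genes with a K20R-restricted promoter region. These were Dppa4, a chromatin-associated protein of pluripotent cells (21 and 29 fragments), and its neighbour Dppa2 (10 and 19), whose promoter window also held a second region with a WT replicate 2 peak at the 3.83rd percentile. The early mesoderm list held 1 of 30, Fgf8, a growth factor of the primitive streak (31 and 44 fragments), beside a stronger promoter peak shared by all 4 libraries. The cardiac list held 1 of 27, Smyd1, a muscle methyltransferase (12 and 9 fragments), whereas 6 cardiac genes had a WT-restricted promoter region. The neuroectoderm, endoderm, fibroblast, trophoblast, CTCF and cohesin, and AP-1 and immediate early lists held none.

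**Figure D2:**
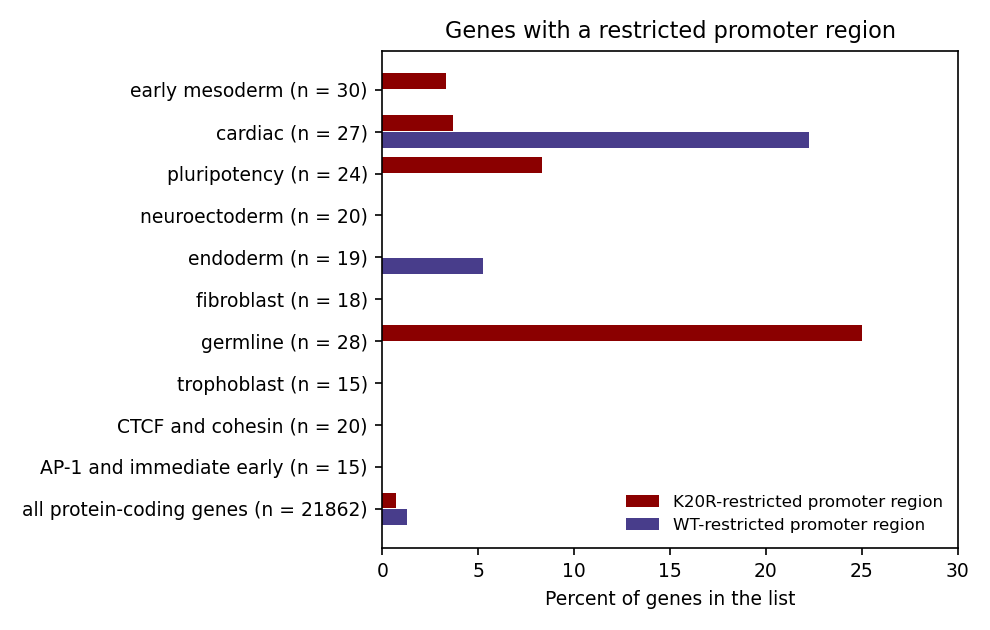
Bars give the percent of the genes of each list with a K20R-restricted (red) or WT-restricted (dark blue) region within 1000 bp of a TSS, with the number of genes in brackets. The germline list stands at 25.0% for K20R and 0 for WT, and all protein-coding genes stand at 0.686% and 1.26%.

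Promoters with a peak in all 4 lists, whose values the selection of regions did not use, were then compared. The germline list had been chosen with earlier results of these data known, so its counts here are a description too. For these common regions the log2 fold enrichment, centred on the median of its library, was fitted with limma over all 38527 common regions, and calls were made at a Benjamini-Hochberg adjusted p of 0.05. Of all common regions, 2.59% were higher and 4.19% lower in K20R, and of 13824 common promoters 0.825% were higher and 0.76% lower. The germline list had 14 common promoters, of which 5 were higher in K20R and 0 lower, with a median difference of 0.49 against 0.01 for all common promoters. Of the 14, 11 had a positive difference. Germline promoters were weaker than most, and 11 of the 14 lay below the median common promoter by mean level, where 1.58% were higher, and 5 lay below the first quartile, where 2.34% were higher.

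Sycp1, the central element protein that joins paired chromosomes in meiosis, had the largest difference among the 5. Its centred log2 fold was -0.88 and -1.39 in the WT libraries, against 0.55 and 0.52 in the K20R libraries, so the genotypes did not overlap, and the log2 difference was 1.67 ± 0.21 (SE, n = 2 per group, limma adjusted p = 4.9e-06). Slc25a31, a germ cell ADP/ATP carrier, had -0.76 and -1.39 in the WT libraries against 0.46 and 0.24, a difference of 1.43 ± 0.22 (limma adjusted p = 5.6e-05). Piwil2, a piRNA-binding protein, had -0.66 and -1.15 against 0.06 and 0.25 (difference 1.06 ± 0.21, limma adjusted p = 0.0014). In each of the 3, both K20R libraries were above both WT libraries. None of the 3 had a −log10 q of at least 5 in all lists, so they did not enter the fit limited to such regions.

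Ddx4, the RNA helicase known as Vasa, gave -0.07 and -0.32 in WT and 0.75 and 0.70 in K20R, a log2 difference of 0.92 ± 0.21 (limma adjusted p = 0.0037). It had 20 and 22 summit fragments in WT and 49 and 61 in K20R. Smc1b, the meiotic cohesin subunit, gave -0.22 and -0.52 in WT and 0.46 and 0.44 in K20R (difference 0.82 ± 0.21, limma adjusted p = 0.011). Calls for these 2 genes were lost without WT replicate 2 (adjusted p = 0.052 for Ddx4 and 0.14 for Smc1b), and that of Smc1b also without either K20R library (0.063 and 0.055). Sycp3 just missed the threshold, at 0.65 ± 0.21 (limma adjusted p = 0.054).

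Other germline promoters were not called. Dazl, an RNA-binding protein of germ cells, was strong in every library, at the 96.2nd and 97.3rd percentile of the WT lists and the 94.0th and 95.3rd of the K20R lists, with a difference of -0.24 ± 0.21 (limma adjusted p = 0.68). Stag3, another meiotic cohesin subunit, had -0.05 ± 0.21 (limma adjusted p = 0.97). By pileup, where the median of all common regions was itself 0.078, they stood at 0.083 and 0.059. The promoter of Brdt, a testis bromodomain protein, had 20 and 45 fragments in the K20R libraries and 14 in WT replicate 2, and no peak in WT replicate 1. The promoters of Tex101, Tdrd9, Zp3, Nobox, Stra8 and Tuba3b had no peak in any list.

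**Figure D3:**
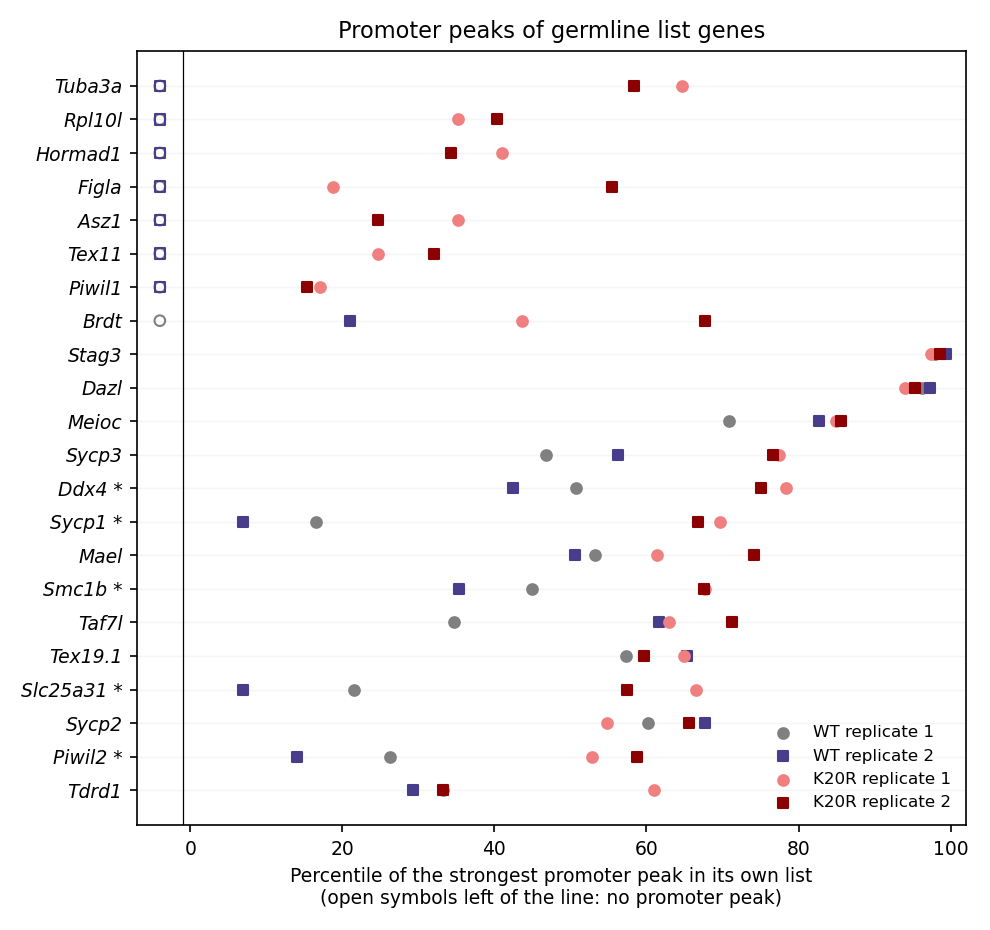
For the 22 germline list genes with a promoter peak, the x axis gives the percentile of the strongest promoter peak in each library's own list, with WT in grey and dark blue and K20R in pink and dark red. Open symbols left of the line mark libraries with no promoter peak, and asterisks mark the 5 common promoters higher in K20R. The 7 uppermost genes have K20R symbols only, while Stag3 and Dazl stand above the 90th percentile in all 4 libraries.

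The trophoblast list, which held no restricted promoter, had 9 common promoters, all with a positive difference (median 0.34, with 7 of 9 positive by pileup) and 2 of them higher in K20R. The median value was that of Eomes, which also stands in the early mesoderm list and was not called (limma adjusted p = 0.47). Krt7, a keratin of trophoblast and other epithelia, differed by 1.21 ± 0.21 (limma adjusted p = 1.8e-04), and Elf5, a trophoblast transcription factor, by 0.69 ± 0.22 (limma adjusted p = 0.049). The call of Elf5 was lost under most alternatives, among them by pileup and without WT replicate 1 (adjusted p = 0.54) or either K20R library (0.16 and 0.15). In the early mesoderm list, Mesp1, a regulator of cardiac mesoderm, was higher by fold (1.40 ± 0.21, limma adjusted p = 3.8e-05), but its summit had 50 and 71 fragments in the WT libraries, against 47 and 72 in the K20R libraries, and its difference by pileup was -0.08. Fgf5, of the epiblast, was lower (-0.76 ± 0.22, limma adjusted p = 0.027), which was lost without WT replicate 1 (adjusted p = 0.36) or K20R replicate 2 (0.22) and under quantile normalization (0.080). The cardiac, pluripotency, neuroectoderm, endoderm, fibroblast, CTCF and cohesin, and AP-1 lists had no call by limma among their common promoters.

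Next, it was asked whether open chromatin beside the restricted regions differed as well. A common region lay within 10000 bp of 186 of the 325, and these were 185 different common regions. Of them 3 were higher in K20R (1.62%) and 9 lower (4.86%), against 2.59% and 4.19% of all common regions, with a median difference of -0.07 on the log2 scale. The 3 higher ones lay beside Ftsj1 (0.68 ± 0.21), Gpa33 (1.08 ± 0.21) and Gimap9 (0.77 ± 0.21), named after their values were seen. Shares of calls beside the regions were thus close to the background in both directions. Positive differences were fewer, at 41.1% of the 185 against 50.5% of all common regions. The share was 47.5% beside promoter regions and 36.8% beside exon regions.

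Few calls were made at the genes themselves. Of the promoter regions, 55 belonged to a gene with a common promoter region too, and of these common promoters 1 was higher in K20R and 2 were lower (1.82% and 3.64%, against 0.825% and 0.76% of all common promoters), with a median difference of 0.02. The higher one was at Gimap9 and the lower ones at Ccdc162 (-0.70) and S100a16 (-0.79).

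**Figure D4:**
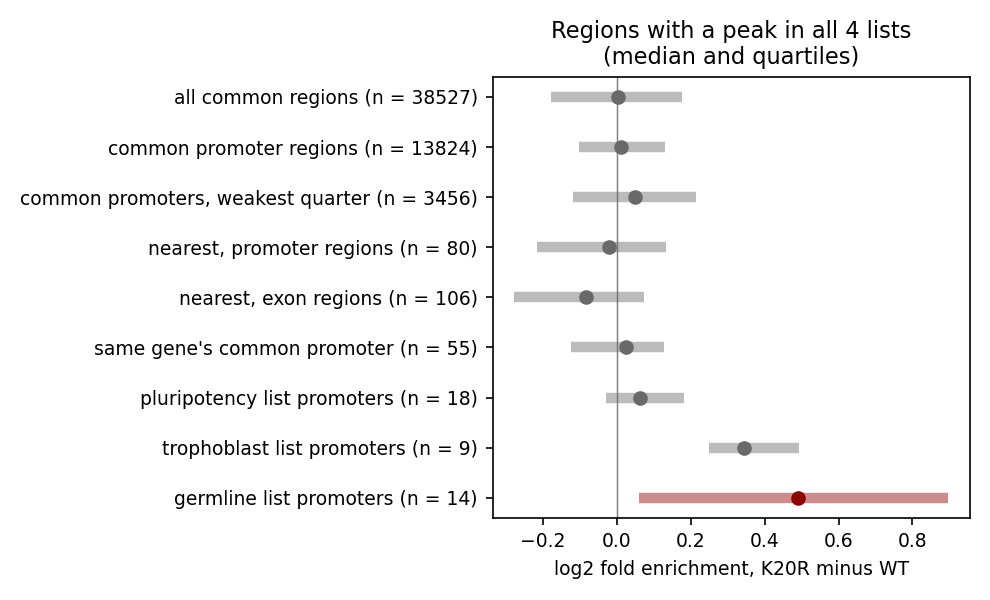
Points give the median and bars the quartiles of the K20R minus WT difference in centred log2 fold enrichment over regions with a peak in all 4 lists, for the sets named on the y axis with their numbers. The sets next to restricted regions lie around 0, and the germline list promoters have a median of 0.49.

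The exon regions were separated from the promoter regions by the rule, which places their summits in exons more than 1000 bp from a TSS. In strength the classes were similar, with a median mean percentile of 22.4 for exon and 21.3 for promoter regions. Of the 178, the summit lay in coding sequence in 122, in a 3′ UTR in 52 and in a stretch annotated as both in 4, and 98 were in the last exon of a transcript. The median distance to the nearest TSS was 12334 bp. They were at 177 genes, with 2 regions in Dst, a cytoskeletal linker, which were weak (10 and 12, and 9 and 11 fragments). AU018091, Hoxb5, Slc9a3r2 and Zfp36l2 each had 1 promoter and 1 exon region.

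Creb1, the cAMP-responsive transcription factor, had the strongest exon region, in the last coding exon (chr1:64576871-64579120), with 35 and 44 fragments at the 64.1st and 57.0th percentile. Pdgfrb, a growth factor receptor of mesenchymal cells and a member of the fibroblast list, had 35 and 49 fragments. Wnt5a, a signalling ligand of the primitive streak and limb, had 32 and 34 in its last coding exon (chr14:28522422-28522869). All 3 were above the 50th percentile in both K20R libraries. The nearest WT peak was 24599 bp away for Creb1, 1231 bp for Pdgfrb and 10805 bp for Wnt5a.

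The remaining 9 of the 12 strongest exon regions ranged from 24 to 48 fragments in K20R replicate 1 and from 32 to 74 in K20R replicate 2. They lay in Olfr1341, Armc12, Rasgrp4, Drosha, Cxxc5, Trappc5, Igsf9, Eif4e2 and Cacna1a. Of all 12, 10 were in coding sequence, and those of Olfr1341, an olfactory receptor, and Eif4e2, a cap-binding protein, were in a 3′ UTR. Drosha, the nuclease that starts miRNA processing, had 26 and 35 fragments. Igsf9, a cell adhesion protein, had high pileups, 47 and 74, and a low fold, 2.90 and 3.39.

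Other list genes with an exon region were Fn1, fibronectin (19 and 25 fragments), Gsc, a homeobox gene of the organizer (36 and 35), Foxa2, an endoderm factor (38 and 68), Fosl2, an AP-1 subunit (15 and 19), and Zfp42, a pluripotency marker known as Rex1 (12 and 13). The Gsc region lay 10 bp and the Foxa2 region 527 bp from a WT peak, and the Zfp42 region was at the 15.8th and 13.2nd percentile.

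The restricted regions held more CpG than their WT counterparts. So did K20R-restricted regions in introns and intergenic sequence, with a median of 1.49 CpG per 100 bp against 0.995 in WT-restricted ones. Within 100 bp of the summit the median was 3.48 CpG per 100 bp in promoter regions and 3.98 in exon regions, and it was 1.49 in both WT-restricted classes and 8.46 and 4.48 in common promoters and exons. At least 5 CpG per 100 bp were found in 30.6% of K20R-restricted promoter regions (45 of 147, Wilson 95% interval 23.7% to 38.5%) and in 2.53% of WT-restricted ones (7 of 277, 1.23% to 5.12%). In exons the shares were 26.4% (47 of 178, 20.5% to 33.3%) and 2.49% (5 of 201, 1.07% to 5.69%). The intervals cover counting error over regions only. Promoter regions of the 21 marked germ cell genes reached 5 CpG per 100 bp in 12 cases, and the other 126 in 33.

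CpG content moved with a small difference over all common promoters too. Of common promoters with at least 5 CpG per 100 bp, 0.646% were higher and 0.111% lower in K20R, and of those with fewer CpG 1.48% were higher and 3.12% lower. The medians of the difference were 0.02 and -0.01. Of the 14 germline list common promoters, 11 had at least 5 CpG per 100 bp, close to the share of all common promoters (78.4%, 10842 of 13824). The part of base composition in the restricted regions was not tested.

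**Figure D5:**
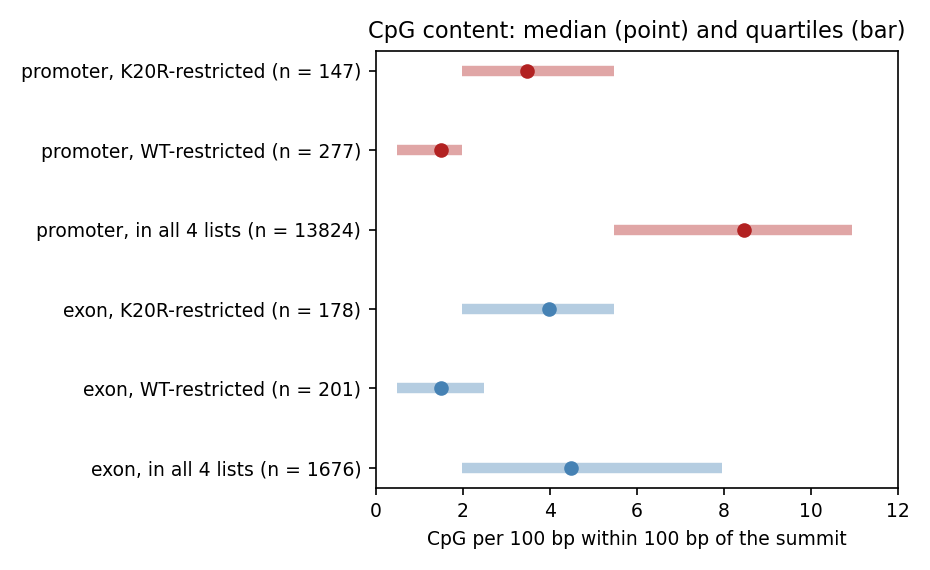
Points give the median and bars the quartiles of CpG per 100 bp within 100 bp of the strongest summit, for promoter (red) and exon (blue) regions restricted to K20R, restricted to WT or present in all 4 lists. Both K20R-restricted classes lie to the right of the WT-restricted classes, and the promoter class lies to the left of common promoters.

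Motifs were searched as fixed letters on both strands within 100 bp of the summit. The CTCF consensus was in 4 of the 325 regions, the strongest of which was the exon region of Mpp4 (19 and 24 fragments). This was 1 of 147 promoter regions (0.680%) and 3 of 178 exon regions (1.69%), against 1.81% and 5.97% in WT-restricted and 0.969% and 8.95% in common promoters and exons, and 0.314% of windows of the same length at all TSSs. The SP-KLF box (GGGCGG) was in 24.5% of promoter and 21.3% of exon regions, 11.2% and 7.46% of WT-restricted, 61.2% and 26.6% of common, and 40.1% of all TSS windows. The T-box consensus (TCACACCT) was in 0 of 147 and 0 of 178, for which the upper Wilson limits are 2.55% and 2.11%. It was in 2.89% and 2.49% of the WT-restricted classes. Elsewhere it was rare too, in 0.398% of common promoters, 0.477% of common exons and 0.702% of all TSS windows. The NFY box (CCAATCA) was in 9 promoter regions (6.12%) and 1 exon region (0.562%), against 5.48% of all TSS windows. In introns and intergenic sequence the SP-KLF box was in 11.4% and 12.5% of K20R-restricted regions, against 6.28% and 6.18% of WT-restricted ones. The T-box shares there were 0.690% and 0.781%, against 2.75% and 3.07% of WT-restricted and 1.24% and 0.980% of common regions. CTCF was in 3.65% and 5.12% of the K20R-restricted regions there, against 2.39% and 2.66% of WT-restricted ones. At promoters and exons its share was lower than in WT-restricted regions, but that rests on 4 of the 325. The Wilson intervals overlapped for promoters (0.120% to 3.75% against 0.773% to 4.16%). They also overlapped for exons (0.575% to 4.84% against 3.45% to 10.1%).

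The regions lay on 20 chromosomes. Chromosome 8 held 27 of them, fewer than chromosomes 5 (30) and 11 (28) but the highest rate, 6.25 per 1000 regions, and apart from the Y chromosome, which held none, chromosome 10 held the fewest for its size, 2.40 per 1000. Chromosome 8 as a whole had more summit fragments in K20R, with a median log2 difference of 0.26 over its common regions relative to all, whereas by fold, which is relative to the local background, it differed by 0.03. Around the restricted regions, the median pileup difference of common regions within 500000 bp was above 0.3 for 19 of 316 (6.01%) and below -0.3 for 7, against 7 and 16 of 459 for WT-restricted promoter and exon regions. Gpat2 (0.44) and Cmtm1 (0.58) were among the 19. Of the 325 regions, 298 were not on chromosome 8, but such stretches were not confined to it, since Gpat2 lies on chromosome 2. The part of such stretches in the restricted regions, those of germline genes included, was not tested.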

How the data were processed

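The methods describe adaptor removal with Trim_Galore, after which bowtie2 (version 2.2.5) placed the reads on mm10, and low-quality, duplicate and blacklisted reads were dropped (sambamba 0.6.7 stands in the processing notes). Peaks come from MACS2 (2.1.0). In the deposited lists the authors give for each peak a score, the fold over local background as a ratio, a −log10 p and a −log10 q, all at the summit. Summit pileups were recovered from fold and p, which gave whole fragments for at least 99.97% of the peaks of each list. GENCODE vM21 basic annotation and GRCm38.p6 sequence, the build of the lists, were used. The chosen regions, gene lists and motifs were selected with earlier results of these data known.

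log2 folds of common regions were centred by library and fitted with limma (version 3.58.1), which was tested on simulated data. With 2 libraries per genotype the p-values rest on the spread between those libraries, which limma moderated towards a value pooled over all common regions. The SE of the list promoters named with one was therefore 0.21 or 0.22 each, and without 1 library it was the same for all of them. Named genes were the 12 strongest promoter and exon regions by mean percentile, list genes, the strongest with the CTCF consensus and those with 2 regions. All others are named as chosen after their values were seen or as list genes. Peak absence was not tested, and intervals are Wilson 95% intervals. Some regions that this rule names are not reported here.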

Additional observations from a re-analysis of the deposited data

How the results depend on the processing

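With 2 libraries per genotype and peak lists without reads, strength rests on few fragments and absence on a threshold. The number of restricted promoter and exon regions (325) was 187 with peaks of −log10 q of at least 10 (19 of the 325 kept), 547 with lists shortened to equal numbers of peaks (276 kept), and 457 to 697 without 1 library. The log2 ratio of WT-restricted to K20R-restricted regions (0.56) was 0.27 at −log10 q of at least 5, 0.10 at 10, 0.90 with a promoter window of 2 kb and -0.96 with equal numbers of peaks, and -0.26 to 1.03 without 1 library, the reversal being that without K20R replicate 1 (-0.26). The shares of exon and promoter peaks kept their direction under all alternatives run, and the promoter difference of 3.71 percentage points fell to 0.453 with equal numbers of peaks. The causes of these changes were not tested, beyond that lists of different length were made equal.

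Common regions higher in K20R (997) numbered 3154 with the summit pileup in place of the fold, 440 among regions with −log10 q of at least 5 in all lists, and 540 to 922 without 1 library. Lower ones (1613) numbered 3291, 582 and 1084 to 1303. Same-numbered libraries share only a number in the labels. The deviations of the replicates numbered 1 correlated at 0.25 across regions, and with the replicate as a block 713 regions were higher and 1256 lower. The block left 5 germline promoters higher. The median difference beside restricted regions (-0.07) was 0.071 by pileup, against 0.078 for all common regions on that scale. Without 1 library it was -0.13 to 0.00026, and the median of all common regions moved too, between -0.050 and 0.049. Beside restricted regions it was the lower one in each of these fits. The median of the genes' own common promoters (0.02) ranged from -0.11 to 0.12 without 1 library. With −log10 q of at least 5, 3 of 11 germline common promoters were higher, namely Ddx4, Smc1b and Sycp3. Sycp1, Slc25a31 and Piwil2 did not enter that fit. Without 1 library the median germline difference was 0.48 to 0.61. With pileups, 9 of 14 germline common promoters were higher (4.53% of all common promoters). On the same pileup scale the difference was 0.083 for Dazl, 0.059 for Stag3, and -0.079 for Mesp1. These 2 germline counts and the named list promoters were put through the alternatives after the data had been seen.

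The CTCF consensus, in 1.23% of the regions, was found in 5.54% with 1 mismatch allowed, and in 1.16% to 3.44% without 1 library. At least 5 CpG per 100 bp were found in 28.3% of all regions, in 38.6% of the 83 with −log10 q of at least 5 in both K20R lists, and in 20.1% to 27.6% without 1 library.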
